A study of Mus musculus with 8 samples.

Results

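The immediate early genes Fos, Fosb, Jun, Junb, Jund, Egr1, Egr2, Atf3 and Ier2 were followed in mesenchyme of the mouse small intestine at P14 and E17.5. They were chosen by name and are 9 of the 46635 loci in the deposited table. 4 libraries came from pups at postnatal day 14 and 4 from fetuses at E17.5. Animals of both ages were wild type, and intestines of both ages had been put in EDTA to strip off the epithelium before RNA was taken from the remaining small intestine. The series concerns gut lengthening, and its design names alternative splicing, which 1 value per gene cannot show. The design text speaks of 4 mice of each age, but no label ties a library to an animal, so the p-values below rest on the spread between libraries, part of which may be technical.

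Immediate early genes are switched on within minutes of a stimulus, without new protein synthesis, by transcription factors that already sit in the nucleus: SRF with its ternary complex partners, and CREB. FOS and JUN proteins pair through leucine zippers into AP-1, ATF3 is a related zipper protein induced by stress, and EGR1 and EGR2 are zinc-finger activators. Growth factors, stretch and injury induce these genes, and so can the handling of excised tissue. The labels give no time between death and lysis for any library, and a part of handling in the values below was not tested.

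The reads assigned to genes, recovered from the table, numbered 17702122 to 18474346 per library at P14 and 16660998 to 19496632 at E17.5. P14 replicate 1 stood apart. Its values correlated with those of the other P14 libraries at 0.78 to 0.87 across the 14044 tested genes, while the other P14 libraries correlated with each other at 0.96 to 0.97 (across genes, which are not independent replicates). Its median level of 14 tested pan-epithelial markers was set to 100%; P14 replicates 2, 3 and 4 were at 1.34%, 14.02% and 4.65%, and the E17.5 libraries at 0.268% to 0.454%. None of the 16 pan-epithelial markers was at 0 in any library, and their summed level ran from 150.7 to 5524 FPKM at P14 and from 38.6 to 60.9 FPKM at E17.5. Markers of the labelled tissue were detected in all libraries. P14 replicate 1 had less of them, with a median ratio to the remaining P14 libraries of 0.316 over 9 tested smooth muscle markers and 0.373 over 8 fibroblast markers. One smooth muscle marker, Tagln, was listed at 0.222 to 1.19 FPKM in all libraries; it overlaps Pcsk7 on the opposite strand. In bulk tissue, fewer cells of a type and less RNA per cell cannot be told apart. Because of P14 replicate 1, the tests of the members and the call counts of the lists are also given without it. Fold changes of other named genes use all libraries unless stated.

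Of the 9 genes, 7 had at least 1 FPKM in at least 4 libraries and were tested. FPKM scales reads by gene length and library size, so levels of different genes can be set side by side. Jund alone rose at P14, and no member fell. That is 1 of 7 called higher, against 9.72% of all tested genes, and 0 of 7 called lower, against 15.0%; in either direction 24.7% of genes were called (limma with Benjamini-Hochberg adjustment over 14044 genes, adjusted p under 0.05). At an unadjusted p under 0.05 the counts were 1 up and 1 down, the second being Fos, and limma-voom on the recovered reads also called 1 up and 0 down. The median log2 fold change of the 7 was 0.28, against 0.00 for all tested genes. Without P14 replicate 1 it was 0.02, against -0.03, and Jund was again the only member called, against 22.6% of genes called higher and 26.9% called lower, 49.5% together. With all libraries no member was free of overlap between the ages, against 15.6% of genes wholly higher and 20.4% wholly lower at P14. The count of members called higher was 0 when any one of P14 replicates 3 and 4 or E17.5 replicates 2, 3 and 4 was left out.

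**Figure D1:**
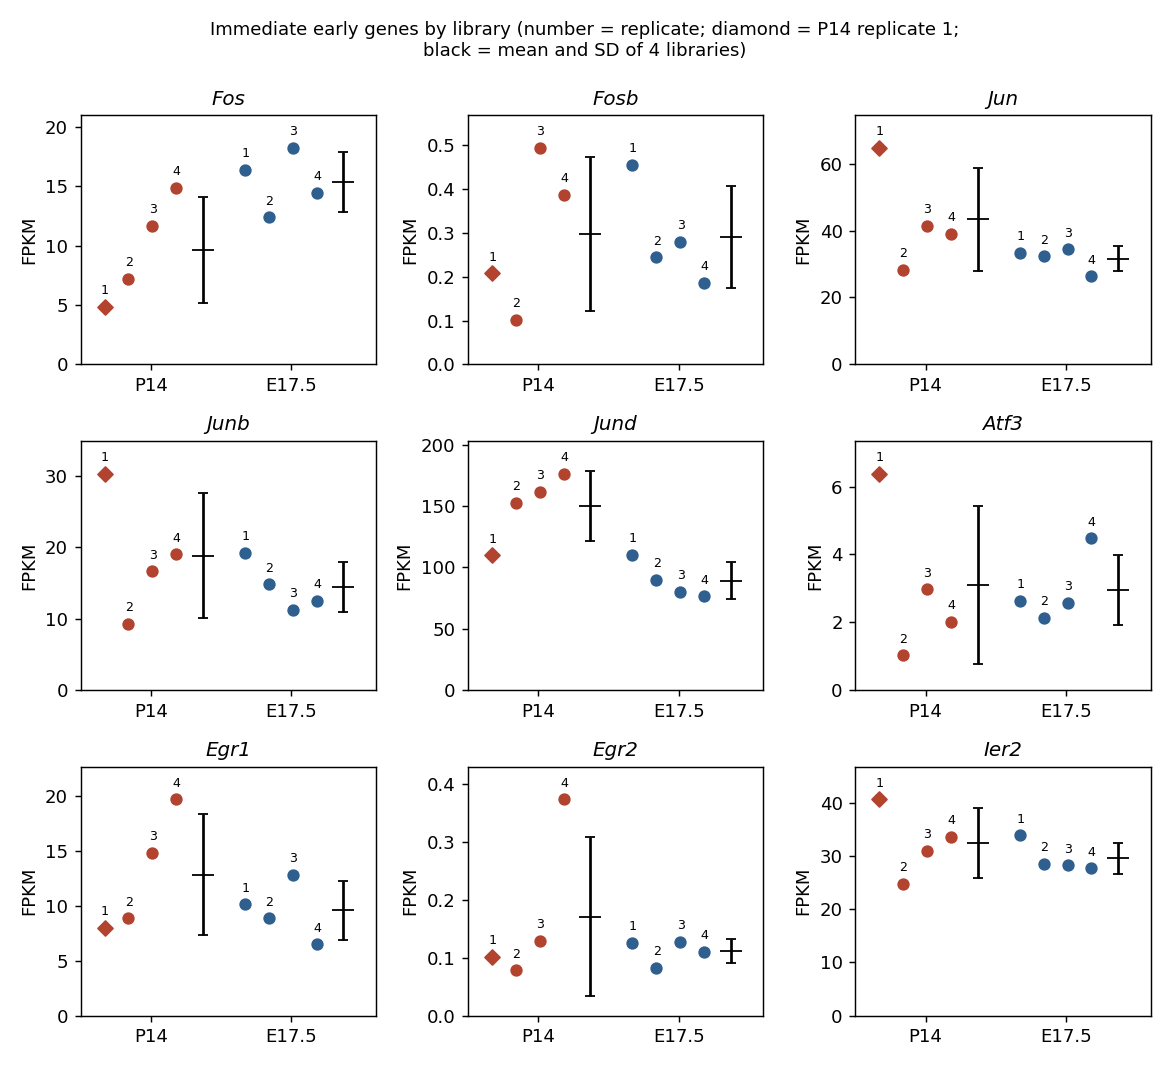
FPKM of each immediate early gene in each library, P14 on the left and E17.5 on the right; numbers are replicates, the diamond is P14 replicate 1 and the black marks are the mean and SD of 4 libraries. The Jund values lie at 110.0 to 177 FPKM at P14 and at 76.6 to 110.1 FPKM at E17.5, and the ages overlap for every gene.

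Among the FOS proteins, which cannot form AP-1 without a JUN partner, Fos was well above Fosb. Fos (gene 14281, GRCm39 chromosome 12, 85520664 to 85524048, plus strand) was at 4.87, 7.23, 11.7 and 14.9 FPKM in P14 replicates 1 to 4, against 16.4, 12.4, 18.3 and 14.5 FPKM in E17.5 replicates 1 to 4. 3 of the 4 P14 libraries lay below every E17.5 library, and only P14 replicate 4 reached into the fetal range. Fos averaged 9.66 ± 4.48 FPKM at P14 and 15.4 ± 2.52 FPKM at E17.5 (SD, n = 4 each; log2 fold change -0.71, SE 0.303, limma adjusted p = 0.122). The difference did not pass the test. With P14 replicate 1 left out the log2 fold change was -0.46 (SE 0.226, limma adjusted p = 0.131).

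Fosb (gene 14282, chromosome 7, 19036621 to 19043970, minus strand) stayed under the filter and was not tested. It was at 0.208, 0.102, 0.495 and 0.387 FPKM in P14 replicates 1 to 4, which rest on 11, 7, 35 and 28 reads. The E17.5 replicates were at 0.455, 0.244, 0.279 and 0.186 FPKM, on 33, 16, 20 and 14 reads. The 7 reads of P14 replicate 2 have an exact 95% Poisson interval of 2.81 to 14.4 and the 35 of P14 replicate 3 one of 24.4 to 48.7, which cover counting error only. The ages overlapped throughout.

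The JUN genes, whose proteins pair with FOS or with each other, held the highest member, Jund, and Jun next. Jund (gene 16478, chromosome 8, 71150389 to 71153265, plus strand), known for a steady level in resting cells, was at 110.0, 153, 161.5 and 177 FPKM in P14 replicates 1 to 4, against 110.1, 90.0, 80.2 and 76.6 FPKM in E17.5 replicates 1 to 4. P14 replicates 2 to 4 lay above all fetal libraries, and P14 replicate 1 fell just below E17.5 replicate 1. Jund rose to 150.2 ± 28.6 FPKM at P14, against 89.2 ± 15.0 FPKM at E17.5 (SD, n = 4 each; log2 fold change 0.74, SE 0.179, limma adjusted p = 0.0218). Without P14 replicate 1 the ages did not overlap, as for 24.8% of tested genes in the same direction and 29.7% in the other, and the log2 fold change was 0.88 (SE 0.128, limma adjusted p = 0.000821). The call was lost without P14 replicate 3 or 4 (adjusted p = 0.0606 and 0.0572) and without E17.5 replicate 2, 3 or 4 (0.0559, 0.0708 and 0.0656). It was also lost after rescaling to TPM, with a log2 fold change of 0.55 (adjusted p = 0.158).

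Jun (gene 16476, chromosome 4, 94937273 to 94940459, minus strand), the founding AP-1 subunit, was at 64.8, 28.2, 41.4 and 39.0 FPKM in P14 replicates 1 to 4, against 33.4, 32.3, 34.5 and 26.3 FPKM at E17.5. P14 replicate 1 was the highest of all 8 libraries, and P14 replicate 2 lay inside the fetal range. Junb (gene 16477, chromosome 8, 85703538 to 85705377, minus strand), a JUN protein that can restrain JUN activity, was at 30.4, 9.30, 16.6 and 19.1 FPKM at P14, against 19.3, 14.8, 11.3 and 12.6 FPKM at E17.5. Its P14 libraries enclosed the whole fetal range. Neither passed the test: the log2 fold change was 0.39 for Jun (SE 0.234, limma adjusted p = 0.253) and 0.27 for Junb (SE 0.325, limma adjusted p = 0.562). With P14 replicate 1 left out these values were 0.18 (adjusted p = 0.335) and 0.02 (adjusted p = 0.961).

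Atf3 (gene 11910, chromosome 1, 190902493 to 190915530, minus strand), whose protein often represses the genes it binds, had the widest P14 range of the tested members. It was at 6.38, 1.03, 2.97 and 2.01 FPKM in P14 replicates 1 to 4, against 2.64, 2.13, 2.56 and 4.47 FPKM at E17.5. These are 177, 37, 110 and 76 reads, against 100, 73, 96 and 176. The highest P14 library stood 6.22 times above the lowest, and the ages overlapped. The log2 fold change was -0.08 (SE 0.381, limma adjusted p = 0.897), and -0.42 without P14 replicate 1 (adjusted p = 0.219). The sign was positive without P14 replicate 2, P14 replicate 4 or E17.5 replicate 4 (0.21, 0.02 and 0.09).

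Egr1 (gene 13653, chromosome 18, plus strand), a zinc-finger activator induced by mitogens, was at 7.98, 8.85, 14.8 and 19.7 FPKM in P14 replicates 1 to 4, against 10.1, 8.85, 12.8 and 6.49 FPKM at E17.5. P14 replicates 3 and 4 were above all fetal libraries, and the other pair lay within their range. The log2 fold change was 0.34 (SE 0.303, limma adjusted p = 0.441), and 0.52 without P14 replicate 1 (SE 0.293, adjusted p = 0.182). Egr2 (gene 13654, chromosome 10, 67370334 to 67383354, plus strand), known for its part in the myelinating program of Schwann cells, was not tested. It was at 0.102, 0.0785, 0.129 and 0.374 FPKM at P14, on 13, 13, 22 and 65 reads. At E17.5 it was at 0.126, 0.0824, 0.128 and 0.111 FPKM, on 22, 13, 22 and 20 reads. P14 replicate 4 exceeded the other 7 libraries, and its 65 reads have an exact 95% Poisson interval of 50.2 to 82.9. The value of Egr2 is uncertain, since 3014 bases of it overlap Ado on the opposite strand, which was at 1.93 to 6.09 FPKM, and the counting is not stated to use strand.

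Ier2 (gene 15936, chromosome 8, 85387960 to 85389481, minus strand), a gene for a small nuclear protein of the rapid response, had the smallest P14 range after Jund. It was at 40.6, 24.8, 31.0 and 33.6 FPKM in P14 replicates 1 to 4, against 33.9, 28.5, 28.2 and 27.6 FPKM at E17.5. The P14 range enclosed the fetal one. The log2 fold change was 0.11 (SE 0.156, limma adjusted p = 0.616), 0.00 without P14 replicate 1 and -0.07 on the TPM scale.

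**Figure D2:**
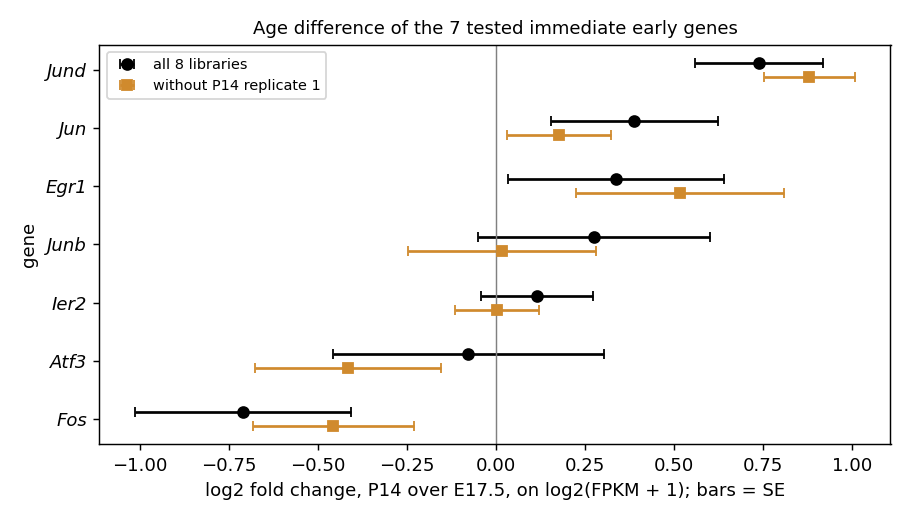
Log2 fold change of the 7 tested members, P14 over E17.5, computed from log2(FPKM + 1) and drawn with its SE; black circles use all 8 libraries and orange squares leave out P14 replicate 1. Jund is at 0.74 and 0.88, Fos at -0.71 and -0.46, and only Jund passed the test.

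By mean level at P14 the order was Jund, Jun, Ier2, Junb, Egr1, Fos, Atf3, Fosb and Egr2. At E17.5 it was Jund, Jun, Ier2, Fos, Junb, Egr1, Atf3, Fosb and Egr2. Jund stood clear of Jun at both ages. Jun was above Ier2 in 4 of 4 P14 libraries and in 2 of 4 fetal ones, so this pair is not ordered at E17.5. Fos was above Junb in 2 of 4 fetal libraries, so these neighbours did not differ beyond their spread either. Egr1 was above Fos in 4 of 4 P14 libraries and, with the order turned, Fos was above Egr1 in 4 of 4 fetal libraries.

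Proportions within a library do not depend on how libraries were scaled. Those given here were chosen after the values were seen and carry no test. The level of Fos relative to Egr1 was 0.610, 0.816, 0.788 and 0.755 in P14 replicates 1 to 4, against 1.62, 1.40, 1.42 and 2.23 in E17.5 replicates 1 to 4. The level of Jund relative to Fos was 22.6, 21.1, 13.8 and 11.9 at P14, against 6.71, 7.26, 4.39 and 5.30 at E17.5. Neither ratio overlapped between the ages, with P14 replicate 1 included. How often ratios of other gene pairs separate in this way was not computed. Among single tested genes, 15.6% were wholly higher and 20.4% wholly lower at P14. Jund relative to Jun did overlap, at 1.70, 5.42, 3.90 and 4.53 in P14 replicates 1 to 4, against 2.33 to 3.30 at E17.5. The JUN genes together summed to 190.1 to 234.7 FPKM at P14 and to 115.4 to 162.7 FPKM at E17.5. Jund made up 53.6%, 80.3%, 73.6% and 75.3% of that sum in P14 replicates 1 to 4, against 63.7% to 67.6% at E17.5, so that P14 replicate 1 lay below the fetal libraries and the other P14 libraries above them.

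**Figure D3:**
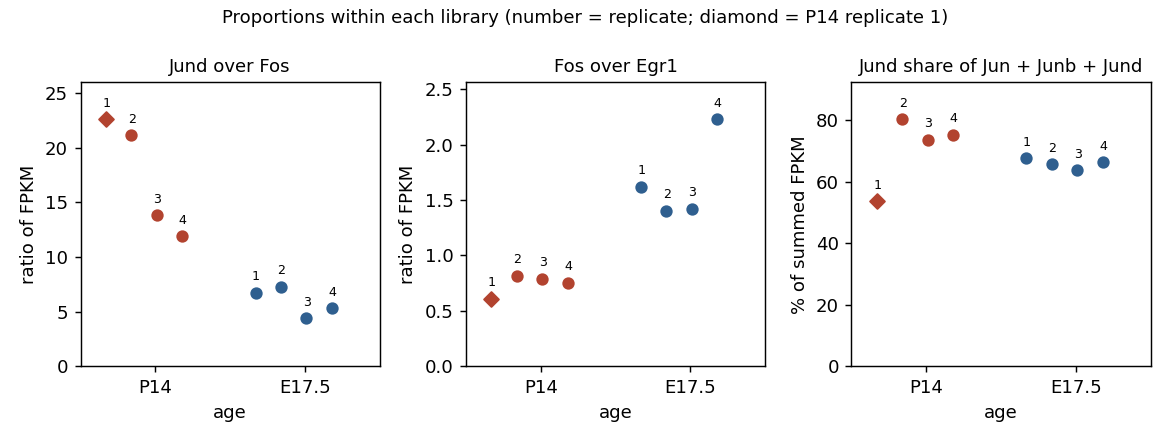
Proportions of immediate early genes within each library, P14 on the left and E17.5 on the right: FPKM of Jund over Fos, of Fos over Egr1, and the share of Jund in the summed FPKM of Jun, Junb and Jund. The ratio of Jund to Fos is 11.9 to 22.6 at P14 and 4.39 to 7.26 at E17.5, and that of Fos to Egr1 is 0.610 to 0.816 at P14 and 1.40 to 2.23 at E17.5.

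Read apart, P14 replicate 1 split the members into opposite sets. Jun, Junb, Atf3 and Ier2 were higher in it than in any other library of either age, at 1.79, 2.03, 3.19 and 1.37 times the mean of P14 replicates 2 to 4. Fos, Egr1 and Jund were lower in it than in any other P14 library, at 0.432, 0.552 and 0.672 times. Among all tested genes, 44.5% had P14 replicate 1 above the other P14 libraries and 40.9% had it below, so a place at either end is common there. On the TPM scale these shares were 24.3% and 63.1%. After rescaling to TPM the ratios of Jun, Junb and Atf3 were 1.27, 1.44 and 2.25, while that of Ier2 was 0.970. The low ratios were lower still, at 0.307 for Fos, 0.392 for Egr1 and 0.478 for Jund. The authors' effective size of this library was 0.78 times its assigned reads, against 1.02 to 1.06 times in the other 7 libraries, which raises all of its FPKM values together. The epithelial level and the lower muscle and fibroblast markers given above moved with this split, and their part in it was not tested.

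The other P14 libraries also differed in a shared way. All 9 members, the pair under the filter included, were lower in P14 replicate 2 than in replicates 3 and 4, a pattern held by 30.6% of all tested genes. Over P14 replicates 2 to 4, the highest level was 2.06 times the lowest for Fos, 2.22 times for Egr1, 2.05 times for Junb, 2.89 times for Atf3, 1.47 times for Jun, 1.36 times for Ier2 and 1.16 times for Jund. The median SD of the tested members on the log2(FPKM + 1) scale was 0.48 in these 3 libraries, against 0.12 for all tested genes, and the median member stood at percentile 93.6 of all tested genes by SD. At E17.5 the median SD was 0.23 against 0.14, at percentile 82.5, and over all 4 P14 libraries 0.57 against 0.31, at percentile 77.3.

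Deviations from the mean of each age show which members moved together. Over 8 libraries, Junb and Ier2 had a Pearson correlation of 0.98, Fos and Egr1 of 0.89 and Jun and Ier2 of 0.88, while Jund and Atf3 were at -0.67. Of the 21 pairs of tested members, 10 had a correlation above 0. Over the 7 libraries without P14 replicate 1, 20 of 21 did, with a median of 0.63. The exception was again Jund with Atf3, at -0.19. These are descriptions over few libraries, which share depth and tissue makeup, and they carry no test.

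**Figure D4:**
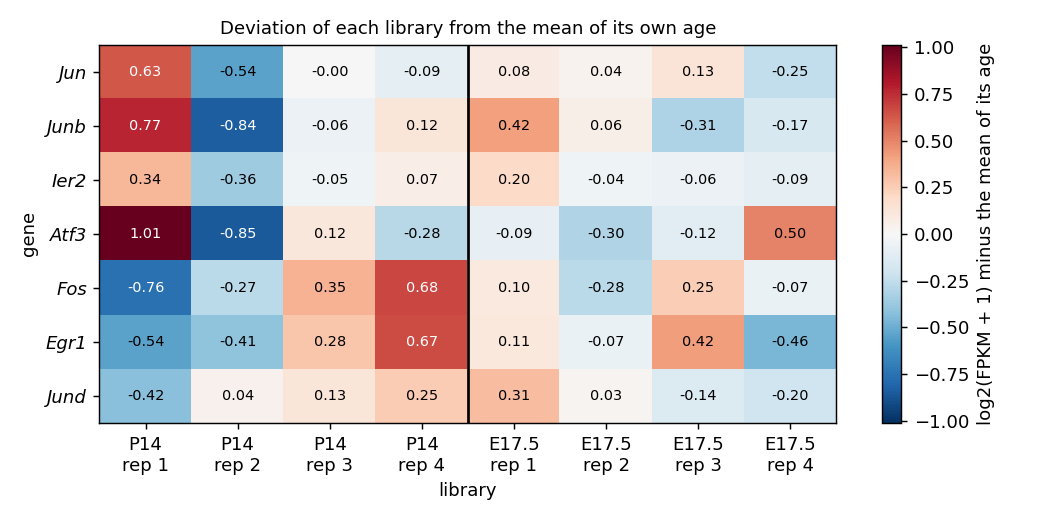
Deviation of log2(FPKM + 1) of each tested member from the mean of its own age, by library, P14 on the left; red is above and blue below that mean. P14 replicate 1 is above for Jun, Junb, Ier2 and Atf3 and below for Fos, Egr1 and Jund, and P14 replicate 2 is below for every member other than Jund.

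Promoters of 7 members are shown because CREB and SRF act through sites close to the start of such genes. The opposite sets named above were defined by the place of P14 replicate 1 alone. Without that library, 20 of 21 pairs of tested members correlated above 0. Windows of these 7 members were taken by gene ID from the RefSeq promoter table, on the older build GRCm38.p6. The 150 bases before the annotated start are given 5′ to 3′ on the gene's strand. Capitals mark TGACG on either strand (the core of the cyclic AMP response element, which lies within the full element TGACGTCA), the CArG box bound by SRF, and the TATA motif TATAAA. For Egr2, 1 of 5 annotated starts is shown, chosen because its window holds these motifs; the CArG box lay in 4 of the 5 windows and TGACG in 3.
Jun (chr4:95052223-95052372, minus strand): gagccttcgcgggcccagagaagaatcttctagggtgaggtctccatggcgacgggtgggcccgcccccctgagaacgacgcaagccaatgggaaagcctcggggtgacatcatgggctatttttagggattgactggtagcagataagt
Junb (chr8:84978749-84978898, minus strand): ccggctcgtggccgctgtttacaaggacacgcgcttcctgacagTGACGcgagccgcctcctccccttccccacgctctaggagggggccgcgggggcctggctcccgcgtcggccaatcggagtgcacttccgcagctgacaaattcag
Atf3 (chr1:191183334-191183483, minus strand): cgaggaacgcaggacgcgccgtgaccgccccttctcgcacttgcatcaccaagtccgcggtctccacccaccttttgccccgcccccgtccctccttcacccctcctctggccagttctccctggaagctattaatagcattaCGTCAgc
Fos (chr12:85473740-85473889, plus strand): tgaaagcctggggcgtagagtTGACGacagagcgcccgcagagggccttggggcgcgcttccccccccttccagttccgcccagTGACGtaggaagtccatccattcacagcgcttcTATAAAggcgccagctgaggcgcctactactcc
Jund (chr8:70697589-70697738, plus strand): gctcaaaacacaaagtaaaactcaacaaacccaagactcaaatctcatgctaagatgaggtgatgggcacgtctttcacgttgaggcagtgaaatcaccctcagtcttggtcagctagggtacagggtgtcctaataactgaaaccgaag
Fosb (chr7:19310046-19310195, minus strand): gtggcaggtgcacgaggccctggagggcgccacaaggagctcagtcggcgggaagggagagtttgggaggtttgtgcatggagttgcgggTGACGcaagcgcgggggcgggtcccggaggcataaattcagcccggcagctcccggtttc
Egr2 (chr10:67537719-67537868, plus strand): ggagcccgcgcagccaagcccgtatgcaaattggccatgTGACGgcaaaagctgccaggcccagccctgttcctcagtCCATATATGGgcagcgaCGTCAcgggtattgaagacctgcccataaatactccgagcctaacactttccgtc

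TGACG occurred in 5 of the 7 members: in Fos at bases -129 to -125 and -66 to -62, in Fosb at -60 to -56, in Junb at -106 to -102, in Atf3 at -7 to -3 and in Egr2 at -111 to -107 and -55 to -51. It was found in 13.3% of all 32851 promoter windows of the same length. None of these 7 members held the full element TGACGTCA (1.36% of windows) or the AP-1 site TGANTCA (4.24%). Only these exact letters were searched, so variants such as TGACATCA in the Jun window were not counted. Egr1 was left out of this search and Ier2 had no window in the source, so the counts say nothing about either. The CArG box was found in Egr2 (0.916% of windows) and the TATA motif in Fos, at -33 to -28 (7.57%). The EGR site GCGNGGGCG was found in Fosb (3.81%) and the ETS core CCGGAA at another start of Egr2 (9.23%). Both sets of members held windows with and without TGACG: Junb and Atf3 with it and Jun without it in the set that was high in P14 replicate 1, Fos with it and Jund without it in the other. A match describes letters in this window and nothing about binding. Bases further upstream were not searched, so the lack of a match holds for this window only.

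Other immediate early genes, 45 in a list chosen with earlier results of these data known, gave more calls down than up. Of 40 tested, 3 rose and 10 fell, against 9.72% and 15.0% of all genes, and the median log2 fold change was -0.25. Cebpd, a C/EBP transcription factor, fell to 10.4 ± 3.06 FPKM at P14, against 30.4 ± 3.92 FPKM at E17.5 (log2 fold change -1.50, limma adjusted p = 0.00312). Ccn1, a secreted matricellular protein, fell by 1.13 on the log2 scale (adjusted p = 0.00227), and its relative Ccn2 fell to 25.8 ± 9.01 FPKM, against 50.8 ± 4.31 FPKM (-1.02, adjusted p = 0.0281). Plk2, a polo-like kinase, fell by 1.03 (adjusted p = 0.0287). Nfkbiz, a nuclear regulator of NF-κB, rose by 0.72 (adjusted p = 0.00518). Dusp5, a nuclear ERK phosphatase, rose by 0.69 (adjusted p = 0.0229), and Ier5, an immediate early response gene related to Ier2, by 0.57 (adjusted p = 0.0349; 0.40 on the TPM scale, adjusted p = 0.233). The calls of Ccn2 and Plk2 were lost without P14 replicate 3 or any one E17.5 library (highest adjusted p 0.0788 and 0.0825). That of Dusp5 was lost without P14 replicate 3 or 4 or E17.5 replicate 3 or 4 (highest 0.0743), and that of Ier5 without replicate 2, 3 or 4 of either age (highest 0.103). Leaving out P14 replicate 1 gave the list 4 up and 15 down, against 22.6% and 26.9% of all genes. The number down was 4 without any one E17.5 library and 6 without P14 replicate 3, and the number up was 1 without any one of P14 replicates 3 and 4 and E17.5 replicates 3 and 4. Some marker lists of cells of the gut wall were lower at P14 too: 5 of 6 tested endothelial markers fell (summed level 143.1 to 316.3 FPKM at P14, against 414.6 to 461.3 FPKM at E17.5). Of 7 macrophage markers 6 fell (142.2 to 219.4 FPKM at P14, against 334.5 to 387.2 FPKM at E17.5), as did 3 of 3 tested erythroid markers (308.8 to 492.1 FPKM at P14, against 1505 to 2206 FPKM at E17.5). None of these markers was at 0 in any library. The other marker lists were not mainly called down. Calls up and down were 0 and 0 of 9 smooth muscle, 1 and 1 of 8 fibroblast and 2 and 0 of 9 enteric neuron and glia markers. They were 2 and 0 of 4 lymphocyte, 0 and 0 of 4 mesothelial and 10 and 0 of 14 pan-epithelial markers. The shares of all genes were 9.72% and 15.0%. Without P14 replicate 1 the calls were 9 and 0 for smooth muscle, 3 and 1 for fibroblast and 4 and 0 for mesothelial markers. For enteric neurons and glia they were 6 and 0, for lymphocytes 2 and 0 and for epithelium 12 and 0. Endothelial, macrophage and erythroid markers had 1 and 5, 0 and 7, and 0 and 3, against 22.6% and 26.9% of all genes. The part of any marker list in the calls of the other immediate early genes was not tested.

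The factors listed as acting on these genes, in either direction, are SRF, its partners, CREB with its relatives and co-activators, and MEF2. Of 17 tested, 2 rose and 4 fell (median -0.11), against 9.72% and 15.0% of all genes. Elk3, an ETS partner of SRF, fell to 16.8 ± 4.23 FPKM at P14, against 36.1 ± 0.575 FPKM at E17.5 (-1.10, limma adjusted p = 0.0053), and Creb1 to 8.64 ± 0.914 FPKM, against 13.8 ± 1.76 FPKM (-0.61, adjusted p = 0.0101). Mrtfb, an SRF co-activator, fell by 0.47 (adjusted p = 0.0344) and Mef2c by 0.46 (adjusted p = 0.0393). Crtc2 and Crtc1, co-activators of CREB, rose by 0.41 (adjusted p = 0.00968) and 0.39 (adjusted p = 0.0467). The call of Mrtfb was lost without replicate 2, 3 or 4 of either age (highest adjusted p 0.0989), that of Mef2c without P14 replicate 2 or 3 or any E17.5 library (0.106) and that of Crtc1 in every omission but that of P14 replicate 1 (0.133). Crtc2, Crtc1 and Mef2c were not called on the TPM scale (adjusted p = 0.261, 0.333 and 0.0549). Leaving out P14 replicate 1, 4 rose and 8 fell, against 22.6% and 26.9% of all genes. The number down was 2 without P14 replicate 2 or 3 or E17.5 replicate 2, 3 or 4, and the number up was 1 in every omission but that of P14 replicate 1, and 0 on the TPM scale.

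Of 20 tested MAP kinases and their downstream kinases, 0 rose and 2 fell, against 9.72% and 15.0% of all genes (median -0.05). There were 4 up and 3 down at an unadjusted p under 0.05, 1 up and 2 down by limma-voom, and 1 up and 4 down on the TPM scale. Rps6ka2, a ribosomal S6 kinase, fell by 1.05 (adjusted p = 0.0191) and Mapk7, the kinase ERK5, by 0.41 (adjusted p = 0.018). Both calls were lost without P14 replicate 3, E17.5 replicate 1 or E17.5 replicate 3, the first also without E17.5 replicate 4 and the second also without E17.5 replicate 2 (highest adjusted p 0.0571 and 0.0574), and the number down was 0 without P14 replicate 3 or E17.5 replicate 3 and 1 without any other E17.5 library. The count was 4 up and 4 down without P14 replicate 1, against 22.6% and 26.9% of all genes. Feedback inhibitors of the pathway are MAP kinase phosphatases and the Sprouty and Spred proteins. Of 12 tested, 0 rose and 6 fell, against 9.72% and 15.0% of all genes, with a median of -0.54 (0 up and 6 down at an unadjusted p under 0.05, and 0 up and 7 down by limma-voom). Dusp6, a cytoplasmic ERK phosphatase, fell to 18.2 ± 2.75 FPKM at P14, against 41.7 ± 4.24 FPKM at E17.5 (-1.16, adjusted p = 0.00156). Spred1 fell to 11.3 ± 1.37 FPKM, against 26.3 ± 1.85 FPKM (-1.15, adjusted p = 0.000812), Dusp4 by 1.03 (adjusted p = 0.00469) and Spry4 by 0.90 (adjusted p = 0.0302). The call of Spry4 was lost without P14 replicate 3 or any one E17.5 library (highest adjusted p 0.0896). The number down was 3 without E17.5 replicate 1, 2 or 3. Leaving out P14 replicate 1 again gave 0 up and 6 down (median -0.45), against 22.6% and 26.9% of all genes. In P14 replicate 1, 11 of the 12 lay below the other P14 libraries, as did 40.9% of all tested genes. The endothelial, macrophage and erythroid markers given above were also mainly called down. The fibroblast markers had a median log2 fold change of -0.48 (-0.13 without P14 replicate 1), with 1 called up and 1 down of 8. The medians of the other marker lists were positive. The part of any marker list in the falls of the feedback inhibitors was not tested.

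AP-1 relatives and EGR co-repressors gave 1 up and 2 down of 15 tested, against 9.72% and 15.0% of all genes (median -0.26). There were 1 up and 7 down without P14 replicate 1, against 22.6% and 26.9%. Batf3, a zipper protein of immune cells, fell to 6.20 ± 1.81 FPKM at P14, against 14.9 ± 0.752 FPKM at E17.5 (-1.19, limma adjusted p = 0.00529), and Creb5 fell by 0.51 (adjusted p = 0.0293). Atf4, the effector of the integrated stress response, rose by 0.37 (adjusted p = 0.0289). The calls of Creb5 and Atf4 were lost when P14 replicate 2 or any one of E17.5 replicates 2 to 4 was left out, Creb5 also without P14 replicate 3 and Atf4 also without P14 replicate 4 (highest adjusted p 0.0809 and 0.0876). On the TPM scale Atf4 was at 0.18 (adjusted p = 0.345).

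Heat shock and metal stress genes, which also respond to handling, gave 1 up and 2 down of 16 tested, against 9.72% and 15.0% of all genes (median -0.09). There were 4 up and 6 down without P14 replicate 1, against 22.6% and 26.9%, and 4 down with TPM or with scaling to assigned reads. Hspa1b, an inducible HSP70 whose value is uncertain beside its near-identical copy Hspa1a, rose to 12.1 ± 5.21 FPKM at P14, against 3.99 ± 0.901 FPKM at E17.5 (1.30, limma adjusted p = 0.0243), a call lost without P14 replicate 3 or 4 or E17.5 replicate 2, 3 or 4 (highest adjusted p 0.0711) and on the TPM scale (0.0694). The number up in the list was 0 without P14 replicate 3 or E17.5 replicate 2, 3 or 4, and 2 without P14 replicate 2. The HSP90 genes Hsp90aa1 and Hsp90ab1 fell by 0.64 (adjusted p = 0.00591) and 0.49 (adjusted p = 0.00518). The list summed to 3070 FPKM in P14 replicate 1 and to 1650 to 1652 FPKM in the other P14 libraries, against 1933 to 2027 FPKM at E17.5. The metallothioneins Mt1 and Mt2, at 711.5 and 674.0 FPKM in P14 replicate 1, made up most of that difference within P14. The other 14 genes summed to 1684, 1633, 1453 and 1631 FPKM in P14 replicates 1 to 4, against 1924 to 2022 FPKM at E17.5. Of the 16 genes, 8 were above and 8 below the other P14 libraries in P14 replicate 1, with Hspa1a at 0.283, Hspa1b at 0.357 and Hspb1 at 0.264 times their mean. The part of these genes in the immediate early gene values was not tested.

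**Figure D5:**
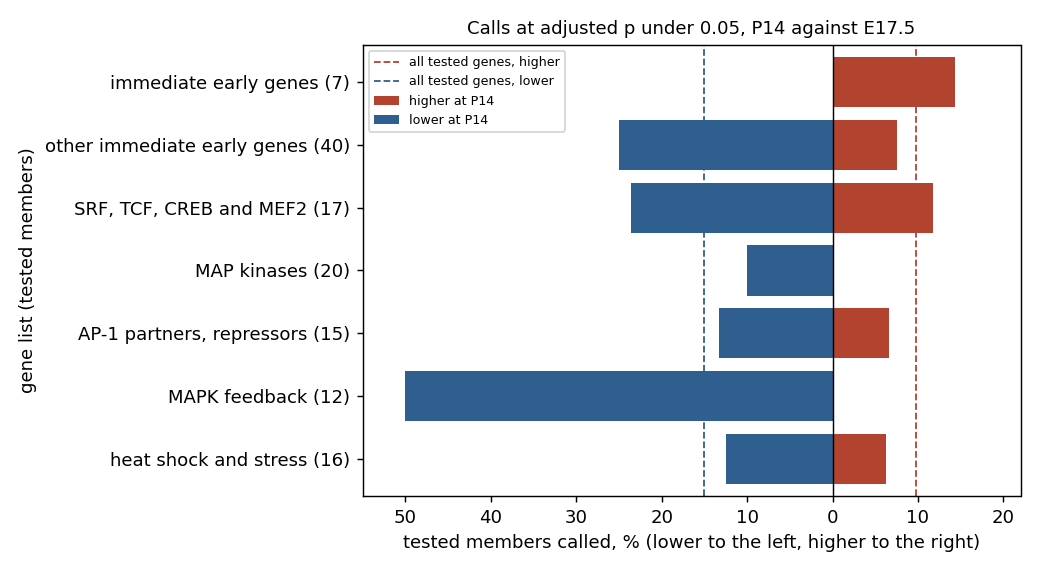
Share of tested members called at an adjusted p under 0.05, P14 against E17.5, for the immediate early genes and 6 related lists; red bars to the right are higher at P14, blue bars to the left lower, and dashed lines give all tested genes. The immediate early genes have 1 of 7 higher and 0 of 7 lower, and the MAPK feedback genes 0 of 12 higher and 6 of 12 lower.

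Among the 10 tested genes whose deviations were most like the mean deviation of the members were Ccl21a, Itgb7, Dusp2, Rassf5, Rasal3, Selplg, Hvcn1, Slc37a2 and Ncf4, with Pearson correlations from 0.94 to 0.98 over 8 libraries and from 0.94 to 0.99 over 7 without P14 replicate 1. They were picked for the highest correlation among all tested genes, so high values follow from that choice. The 7 libraries are part of the 8 and give no separate check. Dusp2, an ERK phosphatase, is itself on the list of other immediate early genes. It was at 7.32, 4.10, 6.596 and 9.04 FPKM in P14 replicates 1 to 4, against 6.73, 5.55, 6.13 and 5.18 FPKM at E17.5. Ccl21a, a chemokine with near-identical copies and therefore an uncertain value, was at 56.7, 13.2, 69.8 and 87.7 FPKM at P14, against 119.5, 80.7, 84.0 and 71.2 FPKM at E17.5. Both were lowest in P14 replicate 2. The 8 lymphocyte markers summed to 121.9, 16.4, 74.95 and 130.2 FPKM in P14 replicates 1 to 4, against 13.5 to 21.9 FPKM at E17.5. Of these markers 2 were at 0 in at least 1 library, and their part in the member values was not tested.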

How the data were processed

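The deposited table holds 1 FPKM value per gene and library, made by the authors and not described further. Per the submitters' processing notes, the build was GRCm39 and the tools included HISAT2, featureCounts, fastp, CASAVA and DESeq2 1.20.0, with no roles named. The sources used here do not give strand use. Reads were recovered from the products of FPKM and gene length, all of which (100%, tolerance 1e-06) were multiples of a library-specific unit; depth per library is given in the report. Poisson intervals cover counting error only. 302 of the 46635 loci have no gene name; they held 0.183% to 0.246% of reads, and 101 were tested.

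Genes with at least 1 FPKM in at least 4 of 8 libraries were tested on log2(FPKM + 1) in limma 3.58.1 (R 4.3.3, statmod 1.5.0; intensity trend, robust moderation, two-sided), with Benjamini-Hochberg adjustment over all 14044. The pseudocount understates changes of low genes. On simulated data of 13900 genes, drawn with an assumed dispersion of 0.03, 90.9% of 2-fold changes were recovered and 6.08% of calls were false. All 8 libraries were drawn with that dispersion and none stood apart as P14 replicate 1 did. The rates therefore need not hold for the members. Sample titles gave the groups and replicate numbers. Other settings tried were a pseudocount of 0.1, no filter, leaving out each library, the replicate number as a block, TPM, median-of-ratios scaling and, added after the data were seen, scaling to assigned reads and limma-voom. The members and lists were chosen with earlier results of these data known. All 208 list symbols matched by name. Named genes were the 9 members, up to 4 called members per list and direction with the largest change (the member with the highest mean level where none was called), and the 10 genes most like the members' mean deviation, predicted models left out; 1 of these 10 is not reported here. Tagln, Mt1, Mt2, Hspa1a and Hspb1 fall outside that rule and were named after their values were seen, as were Egr3 and the ratios.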

Additional observations from a re-analysis of the deposited data

Results flagged for a closer look

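1 value stood far from the others of its age. Ier2 was at 33.9 FPKM in E17.5 replicate 1, while the other E17.5 libraries lay between 27.6 and 28.5 FPKM; the gap to the nearest library took up 0.859 of the whole range, above Dixon's 95% critical value for 4 samples. 18 groups were examined, and chance flags about 1 in 20.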

How the results depend on the processing

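Of 15 alternatives each, Fos, Jun, Junb and Egr1 kept their direction and stayed uncalled in all, with log2 fold changes of -0.94 to -0.46, 0.18 to 0.57, 0.02 to 0.55 and 0.12 to 0.52. Jund stayed positive (0.55 to 0.88) and lost its call in 8. Besides 5 omissions of a library these were rescaling to TPM (0.55, adjusted p = 0.158), scaling to assigned reads (0.64, adjusted p = 0.0963) and the replicate block (0.74, adjusted p = 0.0889), and each of these 3 left 0 members called up. Leaving out 1 library gave 0 to 1 members called up. Atf3 turned positive without P14 replicate 2 (0.21), P14 replicate 4 (0.02) or E17.5 replicate 4 (0.09), and Ier2 negative after TPM (-0.074); none passed the test. Over the omissions Atf3 ran from -0.415 to 0.206. The median percentile of the members' SD was 71.3 and 64.2 at P14, and 74.7 and 77.9 at E17.5, with a pseudocount of 0.1 and after TPM.

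Over all genes, 1365 were called up and 2108 down. Leaving out 1 library gave 617 to 3176 up and 1118 to 3782 down, TPM gave 899 up and 2678 down, and it moved the median of all genes by -0.18. The replicate block gave 695 up and 1049 down. Fetuses and pups share only replicate numbers: same-numbered libraries correlated at -0.06 to 0.01 in their deviations, and none correlated best with its own number. Of 180 counts for the other lists, 98 stayed within 1.5 times. Median-of-ratios factors were 0.999 in every library, so this alternative in effect repeated the main fit and adds no check. The planned edgeR test was not run, since the deposited unit is FPKM. Depth limits Fosb, with 7 to 35 reads per library, and Egr2, with 13 to 65.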

Other observations

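Egr3, an early growth response gene that is no member and was under the filter, was chosen after its values were seen. It was at 1.57, 0.292, 1.24 and 2.35 FPKM in P14 replicates 1 to 4, on 91, 22, 96 and 186 reads. At E17.5 it was at 0.239, 0.223, 0.268 and 0.219 FPKM, on 19, 16, 21 and 18 reads. P14 replicates 1, 3 and 4 lay above all E17.5 libraries. P14 replicate 2, at 22 reads, was within counting error of E17.5 replicate 3 at 21 reads, and on the TPM scale it lay below that library (0.797 against 0.804).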
